A study of Mus musculus with 6 samples.

Results

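Fibroblast growth factor (FGF) ligands and receptors were examined in mouse eEnd2 cells, an embryonic endothelial cell line, stably expressing a GFP-tagged human Integrin-β1. The genes were 5 ligands, Fgf1, Fgf2, Fgf7, Fgf11 and Fgf13, and 4 receptors, Fgfr1, Fgfr2, Fgfr3 and Fgfrl1, chosen by symbol from the 23420 genes of the count table. All 9 were found. The β1-WT-GFP group carried the wildtype human β1A chain and the β1-K794Q-GFP group the same chain with its lysine of that name exchanged for glutamine (K794Q), which mimics the acetylated residue. Each group had 3 cultures, named A, B and C, of untreated cells grown in DMEM with fetal calf serum. Every cell therefore carried a human GFP-tagged β1 chain, driven by a β-actin promoter, and cells were sorted for GFP before RNA extraction. Populations of lower and higher GFP were sorted, and the sources used here do not say which culture came from which, nor that cultures came from separate transfections. The p-values below measure the spread between these cultures, which may be technical.

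FGF ligands signal by bringing 2 tyrosine kinase receptors together on a heparan sulphate chain, and the receptors then phosphorylate the adaptor Frs2 and switch on the RAS-MAPK cascade. The cascade induces its own inhibitors, among them the Sprouty and dual specificity phosphatase (Dusp) proteins. In endothelial cells Fgfr1 is the receptor best known for growth and migration, and Fgf2 and Fgf1 are classical angiogenic ligands that are released without a signal peptide. Fgf7 is secreted by mesenchymal cells and acts mainly on an epithelial splice form of Fgfr2. Fgf11 and Fgf13 stay inside the cell, and Fgfrl1 binds ligand but has no kinase domain.

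Libraries held 9589826 to 15287191 gene counts, and values are given as normalized counts (CPM, scaled to library size), for cultures in the order A, B and C. A count of 3, taken as the floor of detection, corresponded to 0.209 to 0.3 CPM, and it covers counting error only. All 12 endothelial markers checked were above 3 counts in every culture, with a summed level of 7510 to 14400 CPM. Of 8 epithelial markers, 6 never exceeded 3 counts, Epcam and Cdh1 among them. Of 12 mesenchymal markers none exceeded 3 counts in every culture, and Dcn, Lum, Thy1 and Twist1 were at 0 in all 6. The summed mesenchymal level was 2.58 to 3.85 CPM in β1-K794Q-GFP and 85.7 to 195 CPM in β1-WT-GFP cultures. Nearly all of that in WT cultures A and B was Prrx1, at 183 and 194 CPM. Without Prrx1 the sums were 3.56, 3.75 and 2.58 CPM in β1-K794Q-GFP and 0.787, 1.2 and 29.2 CPM in WT cultures, so that WT C stood apart. Of the blood cell markers reported here, the macrophage marker Cd68 was at 31.0 to 103 CPM in every culture, Csf1r at 10.7 CPM in WT C and 0.385 to 0.774 CPM in the others, and Ptprc had 4 counts in WT C and 0 elsewhere. Likeness within the groups was uneven: WT cultures A and B had 65 genes 2-fold or more apart, whereas WT culture C was that far from them in 2701 and 2539 genes. Among β1-K794Q-GFP cultures, A and C were 2-fold apart in 903 genes and culture B was so from them in 2001 and 2562. Where WT C or K794Q B decides a value below, it is also given without that culture. In bulk RNA, fewer cells of a type and less RNA per cell cannot be told apart.

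The stretches just before the RefSeq starts of a ligand that was not detected, Fgf2, of a ligand that was detected, Fgf7, and of the second most abundant receptor per length, Fgfrl1, are shown so that their base composition can be set beside their levels. RefSeq (GRCm38.p6) windows were found for 7 of the 9 genes, with none for Fgf1 and Fgfr1. The 150 bases upstream of the start are printed 5′ to 3′ on the gene's plus strand, with GC boxes (GGGCGG, searched on either strand) in capitals. They lie at chr3:37348503-37348652 for Fgf2, chr2:126034508-126034657 for Fgf7 and chr5:108694079-108694228 for Fgfrl1. The RefSeq start is the GENCODE gene start for Fgf7 but lies 307 bases past it for Fgf2 and 1847 bases past it for Fgfrl1, so that these windows fall within the GENCODE span of the genes.
Fgf2: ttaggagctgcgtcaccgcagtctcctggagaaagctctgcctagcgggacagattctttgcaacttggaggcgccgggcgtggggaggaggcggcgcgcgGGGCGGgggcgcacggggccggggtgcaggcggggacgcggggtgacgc
Fgf7: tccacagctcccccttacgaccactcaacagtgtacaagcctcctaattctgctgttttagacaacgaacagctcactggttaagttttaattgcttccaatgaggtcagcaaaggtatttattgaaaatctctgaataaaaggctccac
Fgfrl1: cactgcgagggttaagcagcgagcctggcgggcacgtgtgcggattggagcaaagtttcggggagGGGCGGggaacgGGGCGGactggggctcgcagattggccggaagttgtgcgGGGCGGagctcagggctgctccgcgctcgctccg

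Over the full 250 bases upstream, the Fgf2 stretch was 62.4% G or C with 20 CpG pairs and 1 GC box, and the Fgfrl1 stretch was 73.6% G or C with 30 CpG pairs and 4 GC boxes. The Fgf7 stretch was 43.6% G or C with 6 CpG pairs and no GC box. Over all 32851 windows of that length the median was 52.4% G or C with 6 CpG pairs, and 32.7% held a GC box. Of the other motifs searched on either strand, an E box (CANNTG) occurred once each in Fgf7 and Fgfrl1 and in 66.2% of all windows, whereas an AP-1 site (TGANTCA, in 6.7%) and a TATA box (TATAAA, in 12.4%) occurred in none of the 3 windows. The undetected Fgf2 thus had the richer upstream stretch in G and C of the 2 ligands, and these letters are a description that says nothing on the binding of a factor.

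The comparison of β1-K794Q-GFP with β1-WT-GFP addressed whether the acetylation-mimetic exchange changes the transcriptome of these cells. A gene was called when it differed at least 2-fold with an unadjusted p of at most 0.05 in edgeR's quasi-likelihood F-test, which are the thresholds of the study. Of 11608 genes tested, 404 (3.48%) were called higher and 199 (1.71%) lower in β1-K794Q-GFP, and 21 (0.181%) passed an adjusted p of 0.05. Of the 9 FGF genes, 5 passed the filter on low counts: Fgf1, Fgf7, Fgfr1, Fgfr3 and Fgfrl1. Fgf1 was called higher, none was called lower, and 0 had an adjusted p under the 0.05 limit. With 5 genes tested, the single call was no measure of how often FGF genes change. The cultures of the groups did not overlap for 16.6% of all tested genes and for none of these 5.

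**Figure D1:**
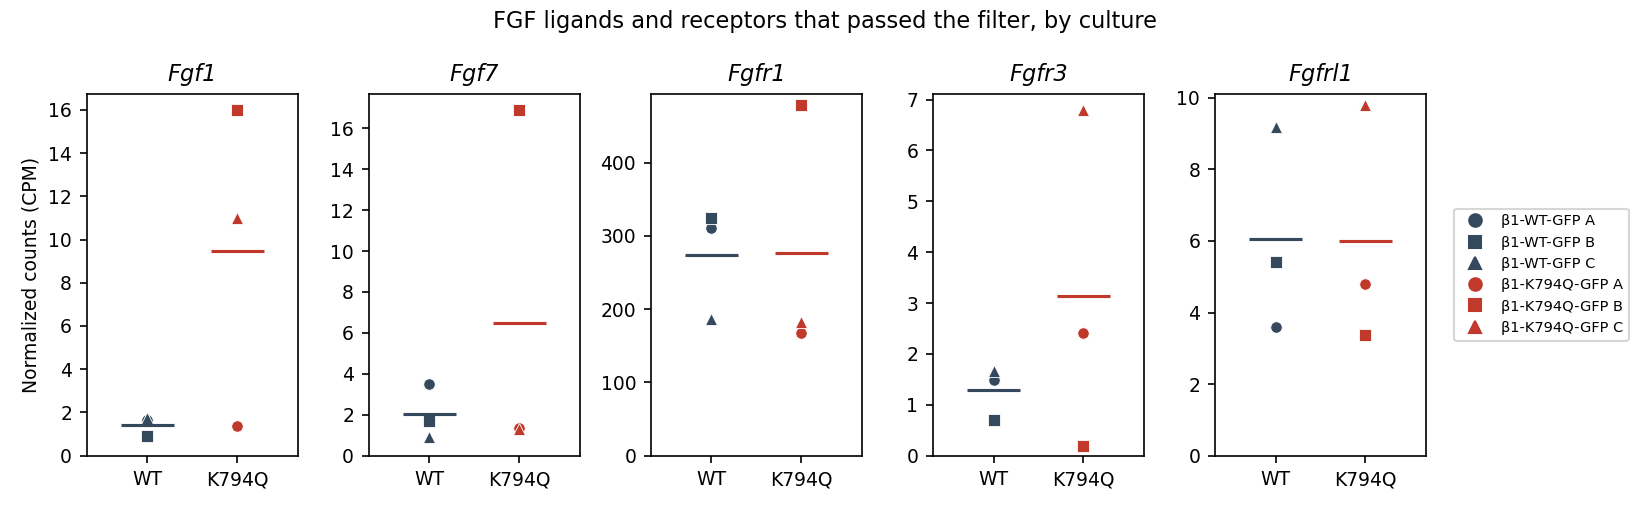
Normalized counts (CPM, linear axis, separate scale for each gene) of the 5 FGF genes that passed the filter on low counts, with 1 point per culture, the shape giving the culture letter and the bar the mean of 3 cultures. Fgf1 was high in β1-K794Q-GFP cultures B and C, Fgf7 and Fgfr1 in culture B, and Fgfr3 in culture C, and the groups overlapped for every gene.

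Fgf1, the ligand able to bind every FGF receptor, had the largest fold change of the 5 genes tested. K794Q A, K794Q B and K794Q C had 1.35, 16 and 11 CPM, and the WT cultures 1.66, 0.9 and 1.74 CPM, from 14, 162 and 128 counts against 19, 9 and 25. K794Q cultures B and C lay above every WT culture, while K794Q culture A lay within the WT range. The mean was 9.45 ± 7.44 CPM (SD, n = 3) against 1.43 ± 0.465 CPM, a log2 fold change of 2.7 ± 0.87 (SE) with an adjusted p of 0.347 (edgeR). DESeq2 gave 2.72 with an adjusted p of 0.0461. The unadjusted p was 0.0197 in edgeR and 0.3 in the exact two-sided permutation test over the 6 cultures, where 0.1 is the smallest p that 3 cultures against 3 allow.

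The call of Fgf1 held in 3 of 6 fits with 1 culture left out, those without K794Q A, without K794Q C and without WT C. Without K794Q B the log2 fold change was 2.1 (adjusted p = 0.389, edgeR), without WT A it was 2.81 (adjusted p = 0.711, edgeR) and without WT B 2.46 (adjusted p = 0.827, edgeR). The gene lies on chromosome 18 from 38838673 to 38929472 on the minus strand (GRCm38, GENCODE M21). In a window of 25 tested genes centred on it, the median level of its neighbours relative to the WT mean stayed between −0.06 and 0.09 log2 units in the 6 cultures, so that the neighbours were not raised in K794Q B and C.

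Fgf7, the keratinocyte growth factor, was high in 1 culture. It was at 1.35, 16.9 and 1.29 CPM in β1-K794Q-GFP and at 3.5, 1.7 and 0.905 CPM in WT cultures A, B and C, from 14, 171 and 15 counts against 40, 17 and 13. K794Q B stood above all others, and the other K794Q cultures lay within the WT range. On the log2 scale the change was 1.67 ± 1.14 (SE) with an adjusted p of 0.727 (edgeR), and without K794Q B it was −0.61. Fgf7 lies on chromosome 2 from 126034658 to 126091185, where the neighbouring genes were at −0.33 log2 units relative to the WT mean in K794Q B. Its neighbours were thus low in the culture in which Fgf7 was high.

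The remaining ligands were at or below the floor of detection. Fgf2, the basic FGF of classical angiogenesis assays, had 0 counts in every culture. Fgf13, an intracellular partner of sodium channels and microtubules, had 1 count in K794Q B and 0 in the other cultures. Fgf11, of the same intracellular subfamily, had 0 counts in all β1-K794Q-GFP cultures and 3, 1 and 2 counts in WT A, B and C. Its groups did not overlap (exact permutation p = 0.1), but no culture exceeded 3 counts, so that a difference was not detectable at this depth. Fgf11 lies on chromosome 11 from 69796068 to 69801857 and Fgf13 on chromosome X from 59062145 to 59568071.

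Fgf2 shares 640 of its 6782 exonic bases with the antisense gene Nudt6, which encodes a hydrolase, on chromosome 3, where Fgf2 spans 37348346 to 37410108 and Nudt6 37404910 to 37420211. Nudt6 was detected at 1.73, 1.09 and 0.688 CPM in β1-K794Q-GFP and 0.787, 1.2 and 0.627 CPM in WT cultures, a log2 fold change of 0.43 ± 0.54 (SE) with an adjusted p of 0.882 (edgeR). Whether counting used the strand is not given in the sources used here, and a read in the shared bases may have been left uncounted. The 0 counts of Fgf2 hold for the bases it does not share as well.

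Of 18 other FGF family genes, 8 were at 0 in all cultures, 7 had counts but never above 3, and Fgf15, Fgf17 and Fgfr4 exceeded 3 counts in at least 1 culture. Fgf17, a ligand of the Fgf8 subfamily, was the only one tested, with 9, 6 and 17 counts in β1-K794Q-GFP and 18, 11 and 17 in WT cultures. Its groups overlapped and its log2 fold change was −0.39 ± 0.5 (SE) with an adjusted p of 0.882 (edgeR). Fgf15, a ligand known from the bile acid axis of the intestine, had 0, 2 and 29 counts in WT A, B and C and 0 in every β1-K794Q-GFP culture, so that its signal came from WT culture C. Fgfr4, the receptor known for its role in liver, had 0, 0 and 1 counts in β1-K794Q-GFP and 4, 1 and 3 in WT cultures. In all, 3 of 22 FGF ligand genes in the table passed the filter.

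Fgfr1 was the most abundant FGF receptor of these cells in either group. It was at 167, 479 and 183 CPM in β1-K794Q-GFP and at 311, 324 and 187 CPM in WT cultures A, B and C. K794Q B was the highest culture, K794Q A the lowest, and the groups overlapped. The means were 277 ± 176 and 274 ± 75.7 CPM (SD, n = 3), a log2 fold change of 0.01 ± 0.47 (SE) with an adjusted p of 0.997 (edgeR). Without K794Q B the change was −0.64 with an adjusted p of 0.435 (edgeR), so that the equality of the means rested on that culture. The SE left room for a change of either sign, and splice forms of the receptor cannot be separated in counts per gene. Fgfr1 lies on chromosome 8 from 25513654 to 25575718 with 19 annotated transcripts, and its neighbouring genes stayed between −0.06 and 0.09 log2 units of their WT mean in every culture.

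Fgfr3, a kinase receptor best known for restraining bone growth, was low and spread most among the receptors. It was at 2.41, 0.197 and 6.79 CPM in β1-K794Q-GFP and at 1.49, 0.7 and 1.67 CPM in WT cultures, from 25, 2 and 79 counts against 17, 7 and 24. The highest and the lowest culture were both β1-K794Q-GFP. With 2 counts, K794Q B was under the floor, and K794Q C was at least 23.0-fold above that floor. The log2 fold change was 1.27 ± 1.05 (SE) with an adjusted p of 0.783 (edgeR). Without K794Q C it was 0.01, and without K794Q B it was 1.82 with an adjusted p of 0.294 (edgeR), the only such fit in which Fgfr3 passed both thresholds. Fgfr3 lies on chromosome 5 from 33721674 to 33737068 and shares 998 exonic bases with G630022F23Rik on the opposite strand, a gene that was not analysed here.

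Fgfrl1, the receptor without a kinase, was at 4.81, 3.36 and 9.8 CPM in β1-K794Q-GFP and at 3.59, 5.4 and 9.19 CPM in WT cultures. Culture C was the highest in either group, and the ranges nearly coincided. On the log2 scale the change was −0.02 ± 0.54 (SE) with an adjusted p of 0.996 (edgeR), and it ranged from −0.57 without K794Q C to 0.43 without WT C. Fgfrl1 lies on chromosome 5 from 108692382 to 108706924. Fgfr2, the partner of Fgf7, on chromosome 7, had 2 counts in K794Q C and 0 in the other 5 cultures, so that it was not detected above the floor in any culture.

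**Figure D2:**
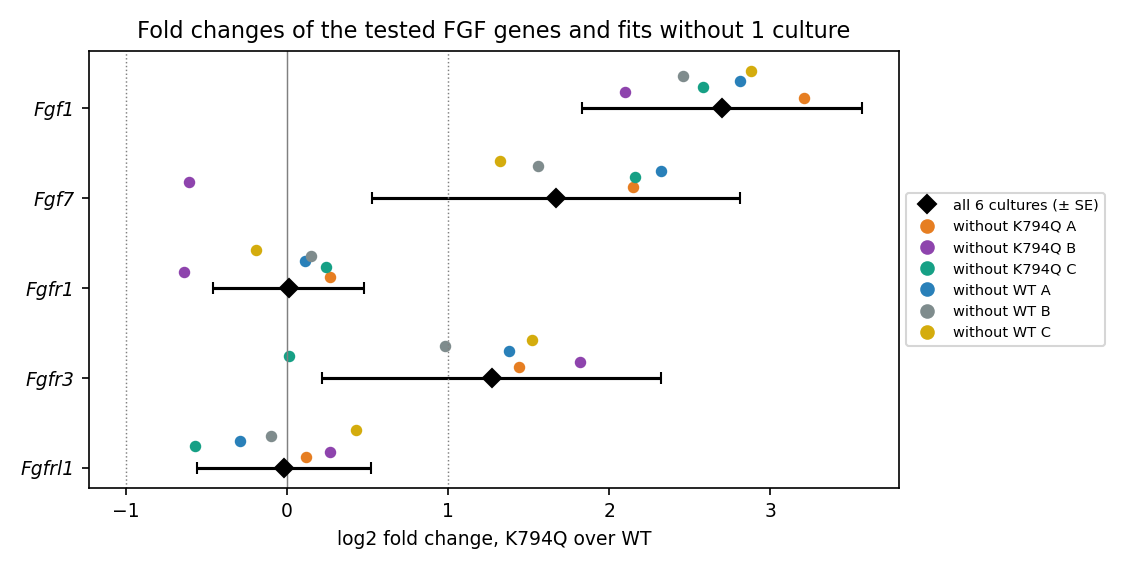
Log2 fold changes of β1-K794Q-GFP over β1-WT-GFP for the 5 tested FGF genes, fitted on all 6 cultures and on 5, leaving out a different culture each time. Fgf1 stayed between 2.1 and 3.21, whereas the fits of Fgf7 ranged from −0.61 to 2.32 and those of Fgfr1 from −0.64 to 0.27.

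To compare different genes, CPM were divided by the exonic length in kb. Fgfr1 was at 16.9, 48.6 and 18.6 CPM per kb in β1-K794Q-GFP and at 31.5, 32.9 and 18.9 CPM per kb in WT cultures. Its mean lay at the 85.6th percentile of all tested genes in β1-K794Q-GFP and at the 85.4th in WT cultures. It made up 80.4 to 97.5% of the summed receptor level in β1-K794Q-GFP and 84.0 to 95.2% in WT cultures.

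Fgfrl1 was second among receptors, at 1.21 to 3.52 CPM per kb over the 6 cultures, and Fgfr3 was at 0.0276 to 0.949 CPM per kb. In every culture Fgfr1 was above Fgfrl1 and Fgfrl1 above Fgfr3, and the levels of these genes did not overlap across cultures. With the longest transcript as the length, Fgfrl1 was at 1.44 to 4.21 and Fgfr3 at 0.0465 to 1.6 CPM per kb, so that their ranges touched, while the order held in every culture. The position of Fgfr1 above the others did not depend on the length used.

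The ligands had no order common to all cultures. In WT cultures, the mean was 0.626 ± 0.409 CPM per kb for Fgf7, 0.761 ± 0.15 CPM per kb for Fgf17 and 0.263 ± 0.085 CPM per kb for Fgf1, and Fgf7 and Fgf17 did not differ beyond their spread. Fgf17 was above Fgf1 in every WT culture, at 0.651 to 0.932 against 0.165 to 0.319 CPM per kb, without overlap. In β1-K794Q-GFP the mean of Fgf7 was 2.0 ± 2.77 and that of Fgf1 1.73 ± 1.36 CPM per kb, again within the spread. The highest ligand was Fgf17 in K794Q A, Fgf7 in K794Q B and Fgf1 in K794Q C, and Fgf7, Fgf17 and Fgf17 in WT A, B and C. In K794Q A and WT B, Fgf17 stood above Fgf7 on 9 against 14 and 11 against 17 counts, too few to set their order. With the longest transcript as the length, both had a WT mean of 0.761 CPM per kb.

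Fgf1 made up 19.2, 34.1 and 58.3% of the summed ligand level in K794Q A, B and C and 11.9, 10.1 and 14.1% in WT cultures. Its share was higher in every β1-K794Q-GFP culture than in any WT culture, but its level was not. In K794Q A Fgf1 was at 0.247 CPM per kb, from 14 counts, within the WT range of 0.165 to 0.319. The share in K794Q A came with a low ligand sum of 1.29 CPM per kb, the sums of the other 5 cultures being 1.63 to 8.58. The sum of 2.27 CPM per kb in WT C, which lowers the share there, included 0.66 of Fgf15. The summed receptor level was 19.0 to 49.8 CPM per kb and exceeded the ligand sum in every culture.

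**Figure D3:**
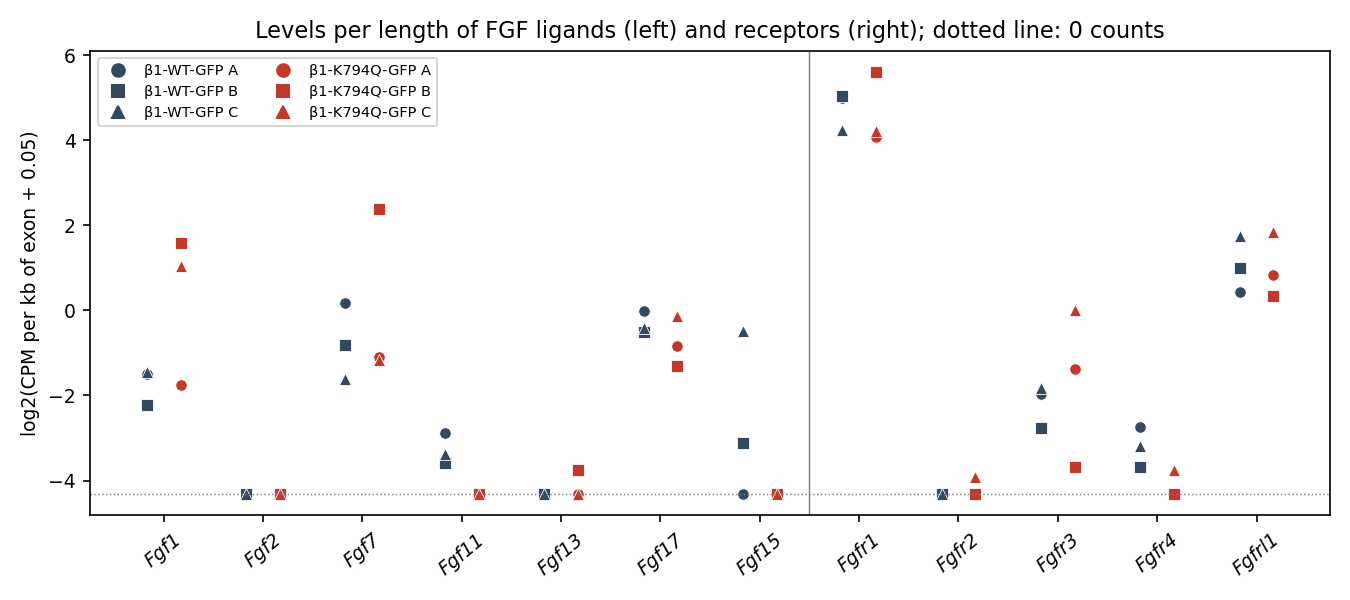
Level per kb of exon (CPM per kb, log axis with a small constant added) of the FGF genes examined and of Fgf15, Fgf17 and Fgfr4 in each culture. Genes under the floor are included, and the dotted line marks the absence of counts. Fgfr1 sits between 16.9 and 48.6 CPM per kb, above all other FGF genes in every culture. The ranges of the ligands Fgf1, Fgf7 and Fgf17 over all cultures overlap each other.

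The genes around the receptors were taken from lists of 140 genes, the 18 other family members included, of which 137 were in the table and 91 were tested. None of the 91 was called higher (3.48% of all tested genes were) and 4 were called lower (4.4%, beside 1.71% of all tested genes), with a median log2 fold change of 0.04 beside −0.02 over all tested genes. The 4 were the glypicans Gpc2 and Gpc4, the phosphatase Dusp4 and the early response gene Ier3. None of the 4 reached an adjusted p of 0.05, and the cultures of the groups did not overlap for any of them, as for 12 of the 91 genes (13.2%) beside 16.6% of all tested genes. Without WT C, 9 of the 91 were called higher and 2 lower, beside 709 higher and 283 lower of 11844 genes tested in that fit, so that the direction of the calls rested on WT C. Without K794Q B, 3 were called higher and 4 lower, beside 622 higher and 320 lower of 11853 genes tested in that fit. The counts of single lists below without WT C or without K794Q B are to be read beside these totals of the same fits.

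Heparan sulphate carriers hold the ligand on the receptor, and 2 of 11 tested core proteins were called lower (1.71% of all tested genes were) and 0 higher, with a median of −0.22. Without WT C, 1 was called lower and 3 higher, and the median was 0.47. Gpc2, a membrane-anchored glypican, was at 0.674, 1.97 and 2.41 CPM in β1-K794Q-GFP and 7.96, 6.2 and 7.45 CPM in WT cultures. All β1-K794Q-GFP cultures were below all WT cultures. The log2 fold change was −2.09 ± 0.5 (SE) with an adjusted p of 0.207 (edgeR), and the call held in 6 of 6 fits without 1 culture.

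Gpc4, another glypican, was at 0, 1.18 and 0 CPM in β1-K794Q-GFP and 1.92, 2.4 and 30.6 CPM in WT cultures. WT C was far above the other WT cultures. On the log2 scale the change was −4.88 ± 1.81 (SE) with an adjusted p of 0.419 (edgeR), and −2.44 and no longer called without WT C. The call was also lost without K794Q A and without K794Q C, and held in the other 3 fits, with a change of −10.09 without K794Q B, which leaves β1-K794Q-GFP at 0 and depends on the prior count.

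Among 14 tested enzymes that build or edit heparan sulphate, none was called. Without WT C, 2 were called higher, and without K794Q B, 1 was. Sulf2, a sulphatase that trims the chain outside the cell and was singled out after its values were seen, was at 48.9, 92.7 and 83.2 CPM in β1-K794Q-GFP and 5.95, 5.7 and 44.5 CPM in WT cultures. Its groups did not overlap, with a log2 fold change of 1.99 ± 0.86 (SE) and an adjusted p of 0.512 (edgeR). WT C was far above the other WT cultures, and without it the change was 3.69 ± 0.356 (SE) with an adjusted p of 0.0444 (edgeR), past both thresholds. Among 7 tested co-receptors and proteins that bind or release FGFs, none was called, with fold changes of −0.09 to 0.53 on the log2 scale. Their median was 0.29, and without WT C it was 0.12, with 1 of the 7 called higher.

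Of 22 tested receptor adaptors and effectors and of 12 tested RAS-MAPK kinases, none was called in either direction, with a median of 0.0 in each list. The kinases lay between −0.5 and 0.5 on the log2 scale. Frs2, the adaptor that FGF receptors phosphorylate and a gene singled out after its values were seen, was at 145, 80.1 and 149 CPM in β1-K794Q-GFP and 64.8, 72.9 and 56.2 CPM in WT cultures.

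All β1-K794Q-GFP cultures exceeded all WT cultures for Frs2, and its log2 fold change of 0.95 ± 0.28 (SE) with an adjusted p of 0.289 (edgeR) fell just short of 2-fold. Frs2 lies on chromosome 10 from 117069427 to 117148534. With the median level of its neighbours in the window of 25 genes taken into the fit, its change was −0.07. The level of Frs2 thus moved with its neighbourhood. Without K794Q B its change was 1.19 and without WT B 1.04, past both thresholds in these fits.

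Other adaptors lay the other way, Shb by a similar size and Shc1 by a smaller one. They too were singled out after their values were seen. Shb was at 29.4, 51.2 and 27.9 CPM in β1-K794Q-GFP and 70.0, 73.7 and 63.0 CPM in WT cultures, a log2 fold change of −0.93 ± 0.27 (SE) with an adjusted p of 0.292 (edgeR). Shc1 was at 133, 172 and 159 CPM against 239, 217 and 228 CPM, a log2 fold change of −0.56 ± 0.17 (SE) with an adjusted p of 0.323 (edgeR). The groups did not overlap for either gene, and neither was called. With the median level of their neighbours taken into the fit, the change was −0.9 for Shb and −0.38 for Shc1. Without K794Q B the change of Shb was −1.26 with an adjusted p of 0.0428 (edgeR), past both thresholds.

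Of 12 tested feedback inhibitors, 1 was called lower (1.71% of all tested genes were) and 0 higher, with a median of 0.38. Without K794Q B, 0 were called lower and 1 higher, and the median was 0.02. Without WT C, 0 were called lower and 1 higher, and the median was 0.29. Dusp4, a nuclear phosphatase of the MAP kinases, was at 114, 66.9 and 82.7 CPM in β1-K794Q-GFP and 168, 168 and 215 CPM in WT cultures. The groups did not overlap. The log2 fold change was −1.06 ± 0.25 (SE) with an adjusted p of 0.19 (edgeR), and the call held in 4 of 6 fits with a culture left out, being lost without K794Q B and without WT C. The changes in these fits were −1.29 to −0.9.

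Dusp6, the cytoplasmic ERK phosphatase and a standard readout of FGF signalling, was also singled out after its values were seen. It was at 489, 768 and 244 CPM in β1-K794Q-GFP and 251, 276 and 295 CPM in WT cultures. K794Q A and B were above and K794Q C below every WT culture, and the log2 fold change of 0.87 had an adjusted p of 0.57 (edgeR). Without K794Q C it was 1.2 and past both thresholds, and without K794Q B it was 0.42.

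Of 10 tested transcription factors and targets that FGF induces, 1 was called lower (1.71% of all tested genes were) and 0 higher, with a median of −0.98. Without WT C the median was 0.82, with 1 called lower and 2 higher, so that the sign of the median rested on that culture. Ier3, an early response gene tied to cell survival, was at 17.9, 13.2 and 13.4 CPM in β1-K794Q-GFP and 28.3, 35.9 and 72.6 CPM in WT cultures, with the groups apart. Its log2 fold change was −1.62 ± 0.39 (SE) with an adjusted p of 0.207 (edgeR), and the call held in 6 of 6 fits without 1 culture.

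WT culture C stood apart for other genes of that list. Egr1, an immediate early transcription factor, was at 318 CPM in WT C and at 1.72 to 7.11 CPM in the other 5 cultures. Etv4, an ETS factor induced by FGF, was at 32.9 CPM in WT C and at 0.493 to 1.98 CPM elsewhere. Neither gene was called, and without WT C their log2 fold changes were 0.44 and 0.79. These were singled out after their values were seen.

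**Figure D4:**
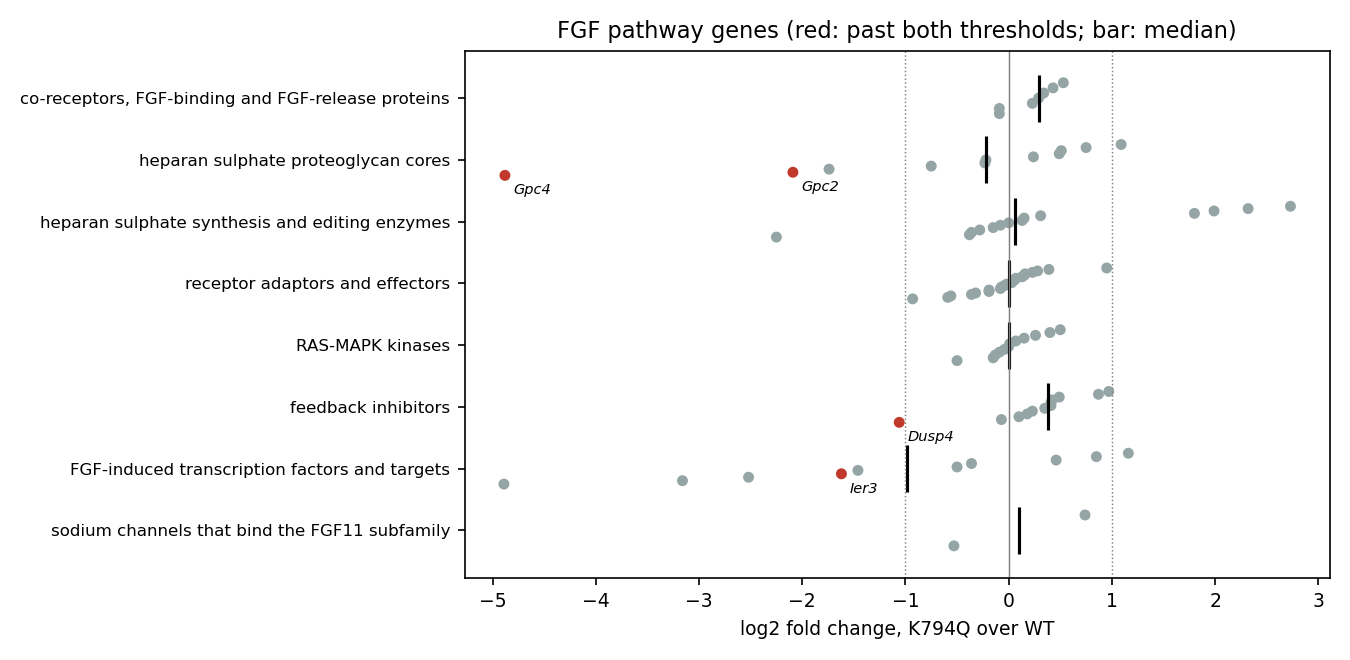
Log2 fold changes of β1-K794Q-GFP over β1-WT-GFP for the tested genes of each FGF pathway list, with called genes marked. The RAS-MAPK kinases lie between −0.5 and 0.5, and the 4 called genes, Gpc2, Gpc4, Dusp4 and Ier3, are all lower in β1-K794Q-GFP in the fit of all 6 cultures.

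The intracellular ligands are partners of voltage-gated sodium channels, and 13 such channel genes were counted, of which 2 were tested and none was called. The profiles most like those of the members that varied at least 4-fold were taken over the 6 cultures from 11484 tested genes, as a description in which all points share their libraries. For Fgf1 they were Calhm2 (Pearson r = 0.982), Diap2 (0.971) and the heparan sulphate proteoglycan Sdc3 (0.964). Sdc3 was at 158, 286 and 248 CPM in β1-K794Q-GFP and 184, 152 and 148 CPM in WT cultures. That K794Q B and C were the highest, as for Fgf1, follows from its selection by likeness.

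For Fgf7 the most similar genes were Pcdhb18 (r = 0.997), Kctd17 (0.989) and Carkd (0.989), each highest in K794Q B. For Fgfr3 they were Dnmt3b (0.994), Spata24 (0.992) and Ankle1 (0.992), each highest in K794Q C and lowest in K794Q B. The high cultures these genes share with the members follow from their selection by likeness. Of the 3 members themselves, Fgf1 was high in K794Q B and C, Fgf7 in K794Q B and Fgfr3 in K794Q C.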

How the data were processed

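Total RNA of 6 confluent cultures, 3 per group, was sequenced after Ribo-Zero depletion of ribosomal RNA. Per the labels, reads were converted with bcl2fastq 2.20.0, aligned to mm10 with STAR 2.7.4a and counted with HTSeq 0.9.1, and edgeR 3.38.4 was used; the annotation and the strand setting are not given in the sources used here. The authors deposited raw counts per gene symbol, without normalization, and the table held 0 further columns of per-sample values. The study describes repeated sequencing of the same samples.

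Counts were normalized by TMM, filtered with filterByExpr (11608 of 23420 genes kept) and compared in edgeR 4.0.16 (R 4.3.3) by its two-sided quasi-likelihood F-test (common dispersion 0.186), with Benjamini-Hochberg adjustment over all tested genes. DESeq2 1.42.0, other filters and scalings, a block and left-out cultures were alternatives. CPM used TMM-scaled totals, and log2 levels an added 0.5 CPM. The counts of WT A and WT B were further apart than counting error allows (chi-square 9.97 per degree of freedom), and each was kept as a sample. GENCODE M21 (GRCm38) gave lengths and positions, with 21777 symbols matched directly and 1262 by a synonym. The main quasi-likelihood fit was tested on simulated counts drawn with the common dispersion of these data. The alternative fits were not tested in that way.

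The FGF genes, the pathway and marker lists and the rules were chosen with earlier results of these data known. Named were the 9 FGF genes, other family genes above 3 counts in at least 1 culture, pathway genes past both thresholds, Nudt6, and for each tested FGF gene varying at least 4-fold the 3 genes of mean CPM at least 1 with the most similar log2 profile (Pearson r). Frs2, Shb, Shc1, Sulf2, Dusp6, Egr1 and Etv4 were added after their values were seen. Pathway genes without a row in the table were not analysed here. The blood cell markers are given in part, since an item is not reported here.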

Additional observations from a re-analysis of the deposited data

How the results depend on the processing

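The log2 fold change of Fgf1 stayed positive in every alternative in which it was tested. It was 2.25 (adjusted p = 0.629, edgeR) with the culture letter as a replicate block and 2.63 (adjusted p = 0.775, edgeR) with WT cultures A and B summed as 1 sample, an alternative added after seeing the data, and was not called in either. With each culture left out in turn it ranged from 2.1 to 3.21, Fgf7 from −0.61 to 2.32, Fgfr1 from −0.64 to 0.27, Fgfr3 from 0.01 to 1.82 and Fgfrl1 from −0.57 to 0.43. The uncalled values near 0 changed sign: Fgfr1 was −0.07 with library totals only, −0.12 with the block and −0.06 with the regional level, and Fgfrl1 was 0.01 with library totals only and 0.04 with the regional level. Of 78 recomputed fold changes, 61 kept direction and side of the thresholds. The count of called FGF genes was 2 with no filter, the second being Fgf11 at no more than 3 counts. It was 0 with at least 10 counts in every culture, where Fgf1 and Fgfr3 were not tested, 0 with the block, 0 with WT A and B summed, and 0 to 1 with a culture left out, the 1 without K794Q B being Fgfr3. Over all genes 603 calls became 916 with no filter and 501 to 992 with a culture left out, 942 without K794Q B and 992 without WT C. Adjusted p was at most 0.05 for 21 genes in the quasi-likelihood test, 477 in DESeq2, 318 in the likelihood ratio test, 33 with bias adjustment, 10 with library totals only, 13 with the regional level, 4 with at least 10 counts in every culture, 1 with the block and 1 with WT A and B summed, and for 0 to 125 with a culture left out. Deviations of log2 levels from the group mean correlated between same-lettered cultures at 0.109, 0.055 and 0.102. The letters were therefore not taken as pairs, and the block gave 571 calls. With the longest transcript as length, WT levels were 54.4 for Fgfr1, 0.303 for Fgfr3 and 0.36 CPM per kb for Fgf1, the order of receptors remaining. Depth limited Fgf2, Fgf11, Fgf13 and Fgfr2, at or under 3 counts.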
